A study of Mus musculus with 8 samples.

Results

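CT10 is the late subjective day of an animal kept in darkness, and it is described here in the suprachiasmatic nucleus (SCN), the paired hypothalamic nucleus that holds the circadian pacemaker of mammals. The data were 8 RNA-seq libraries of SCN from C57/BL6 mice that had lived under 12 h of light and 12 h of darkness and were then moved to constant darkness. The libraries were spaced 6 h apart and carried the times 22, 28, 34, 40, 46, 52, 58 and 64 h, which are CT22, CT4, CT10 and CT16 of a first day and the same times of a second. The CT10 group was the 34 h and the 58 h library. The other 6 libraries were 28 h and 52 h (CT4), 40 h and 64 h (CT16), and 22 h and 46 h (CT22). No light pulse, drug or mutation separated the groups, which share genotype, strain, entrainment and darkness, and age and sex are not stated in the labels used here. Genes were chosen as members where both CT10 libraries lay above, or both below, all 6 other libraries in CPM, the reads of a gene scaled by the effective size of its library. Of 15217 genes with at least 10 reads in at least 2 libraries, 1024 had both CT10 libraries above the other 6 (6.73%) and 1183 had both below (7.77%).

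Each library was made from pooled RNA of 3 mice with a strand-preserving polyA kit, so individual mice cannot be seen. The labels name no replicates, and the libraries of a circadian time were taken from successive days. The p-values below therefore measure the spread between pooled libraries 24 h apart, part of which may be technical. Per the labels, collection started at CT18, 4 h before the time in the title of the earliest library.

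The SCN clock is a feedback loop in which CLOCK and BMAL1 (the product of Arntl) switch on Period, Cryptochrome and other genes through E-box sequences, and the PER and CRY proteins then repress that activity. Rev-erb and ROR receptors and the D-box binding proteins DBP, TEF and HLF form further loops on the first. SCN neurons fire more by day than by night, and late subjective day is when firing declines towards dusk. Body temperature and glucocorticoid levels also cycle, and heat shock genes, cold-inducible RNA-binding proteins and glucocorticoid-responsive genes are known readers of them in many tissues. The 34 h and 58 h libraries thus sample the interval in which Period transcripts are known to be high in the SCN and the dark-phase rise of mouse activity has yet to begin.

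Depth was nearly equal across libraries, with 11123610 to 11131890 sense reads in genes and 4196931 to 4199146 reads in introns. Genes that define the SCN were present in all 8 libraries, among them Six6 at 343 to 950 reads, Lhx1 at 267 to 885 and the neuropeptide Vip at 2109 to 4132. The 34 h library stood apart from the rest in its opposite-strand reads. Over 610 strongly expressed genes, reads on the opposite strand were 0.220% of sense reads at 34 h and 0.692% to 0.879% in the other 7 libraries, and the column of the 34 h library carries an extra letter E in its name. It also held 582 reads of Pomc, a neuropeptide precursor of the neighbouring arcuate nucleus, whose summed markers reached 84.6 CPM at 34 h and 21.4 at 58 h against 13.99 to 30.3 CPM elsewhere. Myelin and meningeal markers varied several-fold between libraries. The 12 oligodendrocyte markers summed to 15325 CPM at 34 h and 13132 at 58 h against 5112 to 15983 CPM elsewhere, with the 64 h library the highest of all 8. The 9 meningeal markers summed to 2233 CPM at 34 h and 2213 at 58 h against 294 to 1818 CPM elsewhere, lowest in the 28 h library. Counts of genes called and the balance of each gene list were therefore also computed without either CT10 library and, chosen after seeing the data, with an oligodendrocyte score (the mean over the 12 markers of each library's centred log2 CPM) as a term of the fit.

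**Figure D1:**
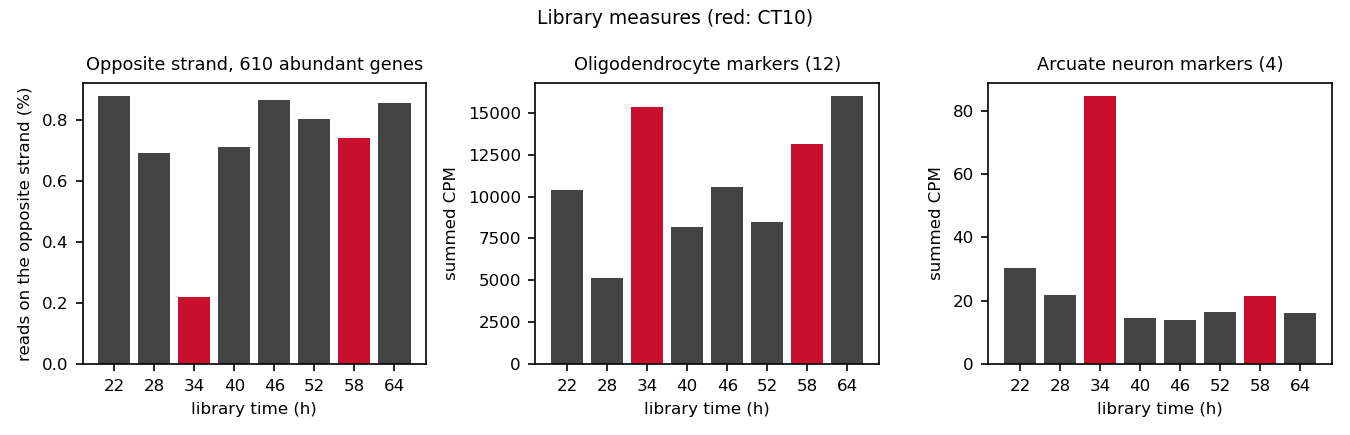
Measures of the 8 libraries by collection time in hours, with the 2 CT10 libraries set apart by colour from the other 6. The 34 h library has the lowest share of opposite-strand reads, 0.220%, while the summed oligodendrocyte markers of both CT10 libraries, 15325 and 13132 CPM, lie under the 15983 CPM of the 64 h library.

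The genes above and those below at CT10 differed in level and length. The 1024 genes above had a median of 28.5 CPM and a median genomic span of 14.5 kb, against 68.0 CPM and 43.99 kb for the 1183 genes below and 25.6 CPM and 23.7 kb for all genes tested. Most changes were small: the median fold of CT10 over the mean of the other times was 1.27 above and 0.816 below. At least 1.5-fold was reached by 235 of the genes above (22.9%) and 146 of those below (12.3%), against 1206 of all genes (7.93%). The rule itself selects for larger differences, so these shares only describe the members. Since 33 of the 1024 genes above passed the read filter only through the CT10 libraries, the size of their difference is partly set by the filter. At CT4, 11.2% of genes had both libraries beyond the other 6, at CT16 6.27% and at CT22 5.75%, against 14.5% at CT10. The genes above were more often nearest in mean level to CT16 (405 genes) or CT22 (354) than to CT4 (265), and CT4 was farthest for 466 of them. For the genes below, CT4 was nearest for 438, CT16 for 373 and CT22 for 372. In this bulk tissue, fewer cells of a type and less RNA per cell cannot be told apart.

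The rule has a sharp edge, with near-equal values on both sides of it. Cops6 was just inside, with 92.2 CPM at 34 h and 90.6 at 58 h against a highest other value of 90.6, and Clasrp was just outside, with a lowest CT10 value that fell short of the 64 h library at the same 55.0 CPM. Below, Klhl1 was just outside at 18.4 and 20.7 CPM. Among genes with a mean of at least 5 CPM, the widest gaps above belonged to Pllp, whose lower CT10 library was 1.91 times the highest other library, Angptl2 (1.81), Arsg (1.62), Rbm3 (1.52) and Opalin (1.41). The widest gap below was that of the transcript D230017M19Rik, whose lowest other library was 1.44 times its higher CT10 library.

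By edgeR's quasi-likelihood test of CT10 against the mean of CT4, CT16 and CT22, 13 genes rose (0.0854% of those tested) and 6 fell (0.0394%) at a Benjamini-Hochberg adjusted p under 0.05, 0.125% in all. An unadjusted p under 0.05 was found for 1931 genes (12.7%), among them 567 of the genes above and 728 of those below. Members were chosen by the same CT10 values, so their counts here are no separate support. Of the 19 genes called, 12 were members above and 6 members below, and Per1 alone was within the range of the others. They fall into clock genes (Dbp, Gm129, Per2, Per1), the cold-inducible Rbm3, heat shock genes (Hsph1, Chordc1, Hsp90aa1), the glucocorticoid-regulated kinase Sgk1, genes of myelin (Pllp, Opalin, Gpr37) and 7 others. DESeq2 called 270 genes with the opposite balance, 86 higher and 184 lower, of which 17 were among the 19. Without the 34 h library edgeR called 2 genes, without the 58 h library 7, without the 64 h library 57 and without the 52 h library 77. Rbm3 was the only gene that passed in all 8 fits that left out a library. Each such fit without a CT10 library leaves that group 1 library, which is assumed to vary like the other groups.

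**Figure D2:**
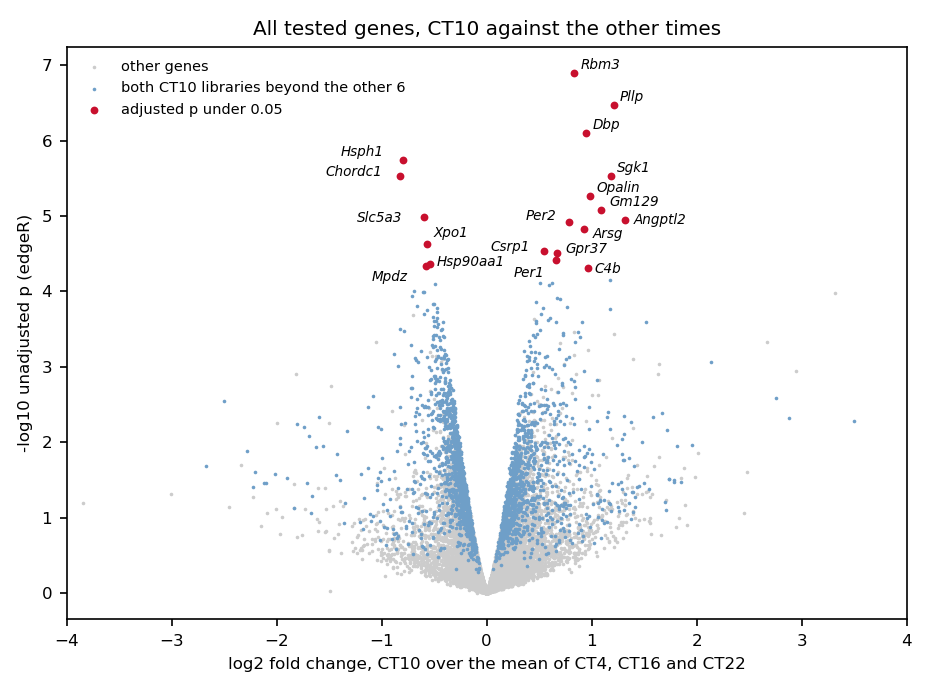
Each point is 1 of the genes tested, placed by its log2 difference of CT10 from the mean of the other 3 times and by the −log10 of its unadjusted edgeR p, with the 19 genes called named and the 2207 member genes coloured. Most members lie close to 0 on the horizontal axis, and 2 genes fall outside its range.

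Period genes and their partners in output were the clock genes that rose at CT10. Dbp (ENSMUSG00000059824, mm9 chr7:52960391-52965574), which encodes a transcription factor of D-box sequences and is a direct CLOCK-BMAL1 target, stood at 92.9 CPM at 34 h and 79.9 at 58 h, against 38.8 at 22 h, 66.5 at 28 h, 32.4 at 40 h, 31.98 at 46 h, 77.1 at 52 h and 38.5 at 64 h. Both CT10 libraries were the highest of the 8, though the 52 h library at CT4 came close to the 58 h one. Dbp rose 1.93-fold at CT10 (log2 difference 0.95 ± 0.12 (SE), adjusted p = 0.00405 by edgeR), and its adjusted p was 0.275 without the 34 h library. Gm129 (ENSMUSG00000038550, mm9 chr3:95682362-95686230), now named Ciart, encodes a repressor of CLOCK-BMAL1. It was measured at 21.1 CPM at 34 h and 20.8 at 58 h, against 8.05 at 22 h, 13.1 at 28 h, 8.85 at 40 h, 7.36 at 46 h, 14.9 at 52 h and 8.85 at 64 h. The other libraries fell into a higher pair at CT4 and 4 low libraries at CT16 and CT22, none of which reached the CT10 level. The gene rose 2.12-fold (log2 difference 1.09 ± 0.16 (SE), adjusted p = 0.0160), with adjusted p = 0.370 without the 34 h library and 0.162 without the 58 h library.

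Per2 (ENSMUSG00000055866, mm9 chr1:93312358-93355922), a repressor of the core loop, reached 87.96 CPM at 34 h and 114 at 58 h, against 46.99 at 22 h, 67.9 at 28 h, 59.3 at 40 h, 40.3 at 46 h, 87.4 at 52 h and 58.9 at 64 h. The margin was narrow, since the 52 h library lay just under the 34 h library. It rose 1.73-fold (log2 difference 0.79 ± 0.12 (SE), adjusted p = 0.0167), but adjusted p = 0.0571 without the 28 h library, 0.0756 without the 34 h library and 0.237 without the 58 h library. Per1 (ENSMUSG00000020893, mm9 chr11:68908711-68923550), its paralog, overlapped the CT4 libraries, with 74.8 CPM at 34 h and 97.7 at 58 h, against 49.9 at 22 h, 77.2 at 28 h, 41.5 at 40 h, 45.3 at 46 h, 86.7 at 52 h and 42.2 at 64 h. It rose 1.58-fold against the mean of the other times (log2 difference 0.66 ± 0.11 (SE), adjusted p = 0.0365), and adjusted p = 0.0982 without the 28 h library, 0.0756 without the 34 h library, 0.0712 without the 40 h library, 0.0574 without the 46 h library and 0.345 without the 58 h library. The highest Per1 library was also at CT10, at 58 h, but its 34 h library lay below both CT4 libraries. For Dbp, Gm129 and Per2 both CT10 libraries lay above the CT4 ones, though none of these genes passed against CT4 alone.

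The promoter of Ciart (Gm129) is shown because it holds 3 E-boxes, and that of Per1 because it holds an E-box and a D-box. Both are from RefSeq on GRCm38.p6, cover 250 bases before the transcript start and 30 after it, and are read 5′ to 3′ along the gene, with the matched letters in capitals.
Ciart: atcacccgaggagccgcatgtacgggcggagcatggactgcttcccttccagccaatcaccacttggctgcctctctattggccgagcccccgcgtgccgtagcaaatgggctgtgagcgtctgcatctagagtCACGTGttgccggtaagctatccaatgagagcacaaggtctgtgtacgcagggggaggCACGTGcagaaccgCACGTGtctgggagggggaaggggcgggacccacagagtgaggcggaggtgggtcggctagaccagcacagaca
Per1: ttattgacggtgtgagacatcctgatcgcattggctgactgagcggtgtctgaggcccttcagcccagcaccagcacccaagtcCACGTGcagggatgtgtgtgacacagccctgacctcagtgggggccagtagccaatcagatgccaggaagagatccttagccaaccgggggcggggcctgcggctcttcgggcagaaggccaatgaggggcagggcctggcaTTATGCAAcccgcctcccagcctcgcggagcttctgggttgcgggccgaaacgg
The Ciart window is chr3:95882199-95882478 on the minus strand, and its CACGTG matches begin at −116, −58 and −44, where −1 is the base just before the start. The Per1 window is chr11:69098699-69098978 on the plus strand, with CACGTG at −166 and TTATGCAA at −24, and the window of its other RefSeq start holds none of the motifs searched. Motifs were searched on both strands of 300-base windows: the E-box CACGTG, the D-box as TTATGTAA or TTATGCAA, the cAMP response element TGACGTCA, the heat shock element as 3 alternating GAA and TTC units set 2 bases apart, and the glucocorticoid response element as AGAACA and TGTTCT set 3 bases apart. Windows were found for 14 of the 19 genes called, and a gene was counted if any of its windows held the motif. Of these 14 genes, 4 held an E-box and 1 a D-box. The shares were 11.3% and 1.47% of the 11739 genes tested that had a window under their current symbol. Among members with a window, an E-box was found for 12.9% of the genes above and 10.9% of the genes below. The cAMP response element was found for none of the 14 genes and for 3.44% of the genes tested. The Dbp window holds none of these letters.

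Of the 20 core clock genes tested, 13 were higher and 7 lower at CT10 in fitted value, with a median log2 difference of 0.20 beside 0.01 for all genes. Without the 58 h library the median was 0.081, and against CT4 alone it was -0.02. Members above numbered 6 of the 20 and members below 2, beside 6.73% and 7.77% of all genes. Per3, the remaining Period gene, had 95.4 CPM at 34 h and 96.1 at 58 h against 60.1 to 82.3 CPM with a median of 73.4 elsewhere, a log2 difference of 0.40 ± 0.11 (SE) that did not pass (adjusted p = 0.134). Tef, a D-box binding protein like Dbp, had 400.4 CPM at 34 h and 423 at 58 h against 288 to 372 CPM with a median of 337 (log2 difference 0.31 ± 0.09 (SE), adjusted p = 0.148). Bhlhe40, an E-box repressor, had 64.7 CPM at 34 h and 59.9 at 58 h against 45.7 to 52.3 CPM with a median of 48.3 (log2 difference 0.35 ± 0.11 (SE), adjusted p = 0.180). In all 3 the CT10 libraries were above the rest, by small margins. The 2 members below were Arntl and Rorb, both on the activating arm. Arntl had 32.6 CPM at 34 h and 36.9 at 58 h against 39.4 to 60.7 CPM with a median of 46.8 (log2 difference -0.44 ± 0.13 (SE), adjusted p = 0.181). Rorb had 116 CPM at 34 h and 128 at 58 h against 132 to 219 CPM with a median of 167 (log2 difference -0.46 ± 0.12 (SE), adjusted p = 0.123). The CT10 values of Nr1d1, Nr1d2, Cry1, Cry2, Clock, Npas2, Nfil3, Rora, Hlf and Bhlhe41 overlapped the others, with log2 differences from -0.47 (Npas2) to 0.25 (Cry1).

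**Figure D3:**
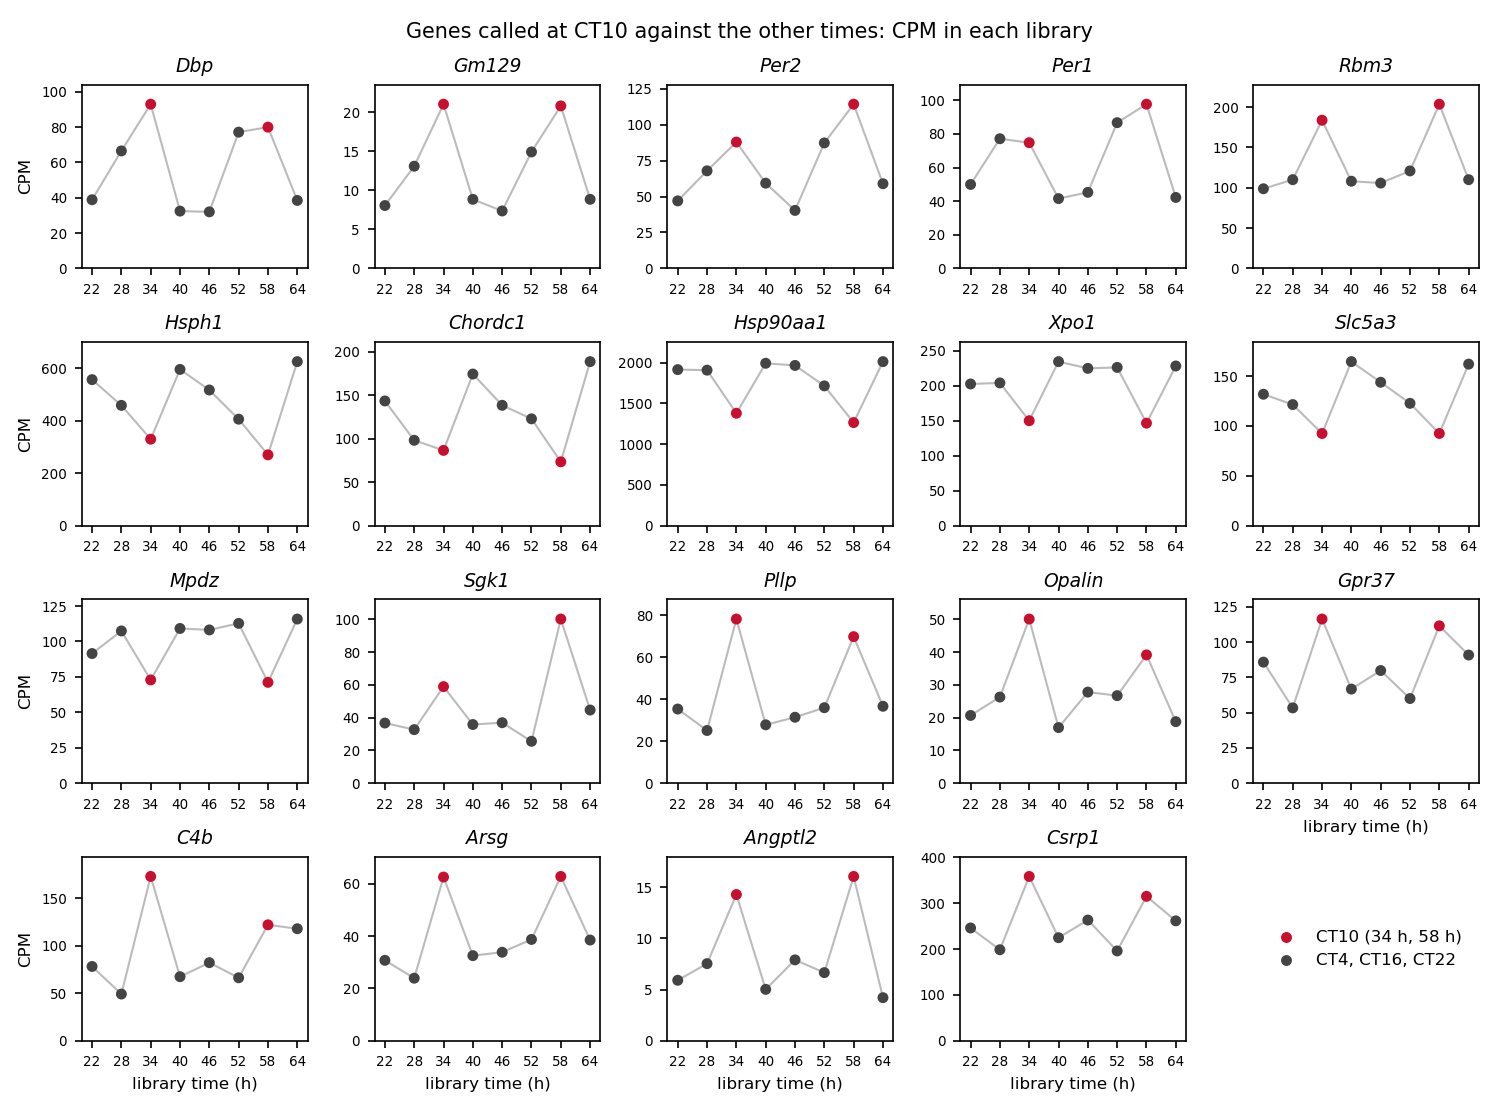
CPM of genes called by edgeR in each of the 8 libraries, by collection time in hours, with the CT10 libraries in red. Rbm3 stands at 184 and 204 CPM at CT10 and at 98.7 to 121 in the other 6, while for Per1 the CT4 libraries overlap the CT10 ones.

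Rbm3 had the lowest p of all genes. It encodes an RNA-binding protein induced by mild cold (ENSMUSG00000031167, mm9 chrX:7715878-7723030) and stood at 184 CPM at 34 h and 204 at 58 h, against 98.7 at 22 h, 110.0 at 28 h, 108 at 40 h, 106 at 46 h, 121 at 52 h and 110.0 at 64 h. The other 6 libraries spanned a narrow range that did not touch the CT10 values. Rbm3 rose 1.78-fold (log2 difference 0.83 ± 0.09 (SE), adjusted p = 0.00193 by edgeR), and its adjusted p without any 1 library ran from 0.00200 to 0.0478. Its relative Cirbp, another cold-inducible RNA-binding protein, had 181 CPM at 34 h and 215 at 58 h against 124 to 187 CPM, a log2 difference of 0.45 ± 0.09 (SE) with the 34 h library inside the range of the others (adjusted p = 0.0696). Srsf5, the third gene of the cold-inducible list, was a member below with 718 CPM at 34 h and 789 at 58 h against 833 to 994 CPM (log2 difference -0.28 ± 0.10 (SE), adjusted p = 0.272). The 3 cold-inducible genes did not share a direction.

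Genes of RNA binding and splicing had slightly lower values at CT10. All 23 tested had a negative difference, 11 of them were members below against a background of 7.77%, and none passed the test. Their median log2 difference was -0.22 and ranged little between the times compared, at -0.15 against CT4, -0.20 against CT16 and -0.16 against CT22, all 3 of which use the same CT10 libraries. Hnrnpa2b1, which encodes a nuclear RNA-binding protein, had 1024 CPM at 34 h and 1024 at 58 h against 1225 to 1471 CPM (log2 difference -0.40 ± 0.09 (SE), adjusted p = 0.0944). Srsf7, a serine/arginine-rich splicing factor, had 183 CPM at 34 h and 195 at 58 h against 224 to 258 CPM (adjusted p = 0.136). Hnrnph1, another hnRNP gene, had 439.7 CPM at 34 h and 497 at 58 h against 556 to 618 CPM (adjusted p = 0.163). In these 3 genes the CT10 libraries were the lowest of the 8. Without the 34 h library all 23 still had a negative difference (median log2 -0.19), and without the 58 h library 22 did (-0.22).

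Heat shock genes made up 3 of the 6 genes that fell. Hsph1 (ENSMUSG00000029657, mm9 chr5:150416820-150438956), a large chaperone of the Hsp70 system, stood at 329 CPM at 34 h and 269.9 at 58 h, against 556 at 22 h, 458 at 28 h, 595 at 40 h, 517 at 46 h, 406 at 52 h and 625 at 64 h. Both CT10 libraries were the lowest, the CT4 libraries came next and the CT16 libraries were highest. Hsph1 fell to 0.576 of the other times (log2 difference -0.80 ± 0.10 (SE), adjusted p = 0.00682 by edgeR), with adjusted p = 0.0573 without the 34 h library and 0.122 without the 58 h library. Chordc1 (ENSMUSG00000001774, mm9 chr9:18096692-18118566), a partner of Hsp90, showed the same order of times, with 86.6 CPM at 34 h and 73.5 at 58 h, against 143 at 22 h, 98.3 at 28 h, 174 at 40 h, 138 at 46 h, 123 at 52 h and 189 at 64 h. It fell to 0.566 of the other times (log2 difference -0.82 ± 0.11 (SE), adjusted p = 0.00743), with adjusted p = 0.0756 without the 34 h library and 0.136 without the 58 h library. With the oligodendrocyte score as a term, Chordc1 was the only gene called in the whole table (adjusted p = 0.0370). Hsp90aa1 (ENSMUSG00000021270, mm9 chr12:111928711-111940948), the stress-inducible Hsp90, was among the most abundant of the genes called, with 1379 CPM at 34 h and 1265 at 58 h, against 1914 at 22 h, 1907 at 28 h, 1992 at 40 h, 1965 at 46 h, 1715 at 52 h and 2012 at 64 h. The CT10 libraries were again the lowest pair. It fell to 0.690 of the other times (log2 difference -0.54 ± 0.09 (SE), adjusted p = 0.0391), but adjusted p = 0.0701 without the 22 h library, 0.0968 without the 28 h library, 0.420 without the 34 h library, 0.0835 without the 46 h library and 0.240 without the 58 h library.

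The promoters of Chordc1 and Hsph1 are shown because they hold heat shock elements, the binding sequence of heat shock factors. They are drawn as above, with heat shock elements and, in Hsph1, an E-box in capitals.
Chordc1: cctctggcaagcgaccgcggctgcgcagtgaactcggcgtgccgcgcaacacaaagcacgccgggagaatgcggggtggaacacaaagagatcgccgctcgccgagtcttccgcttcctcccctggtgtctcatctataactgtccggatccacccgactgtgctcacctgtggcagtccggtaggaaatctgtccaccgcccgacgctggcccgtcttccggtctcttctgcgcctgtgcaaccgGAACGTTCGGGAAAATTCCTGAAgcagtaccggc
Hsph1: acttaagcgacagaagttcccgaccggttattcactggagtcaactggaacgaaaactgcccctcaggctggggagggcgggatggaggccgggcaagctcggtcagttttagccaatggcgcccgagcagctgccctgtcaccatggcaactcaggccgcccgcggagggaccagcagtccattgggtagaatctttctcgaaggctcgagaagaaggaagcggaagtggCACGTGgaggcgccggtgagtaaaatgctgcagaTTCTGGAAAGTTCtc
The Chordc1 window is chr9:18292017-18292296 on the plus strand, where 3 overlapping matches begin at −4, 2 and 7, counting the first transcribed base as 1. The Hsph1 window is chr5:149636286-149636565 on the minus strand, with a heat shock element at 16 and an E-box at −19. These were the only 2 with a heat shock element among the 14 genes called that had a window, and 0.562% of genes tested held one. The share was 0.754% for the genes above and 1.06% for the genes below.

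Across the heat shock list, 21 of 23 genes tested had a negative difference and 10 were members below, 3 of which passed the test. Of all genes, 7.77% were members below. The median log2 difference was -0.26, with -0.12 against CT4, -0.30 against CT22 and -0.46 against CT16. The summed list stood at 7574 CPM at 34 h and 7032 at 58 h, below the 8155 to 10406 of the other libraries. The count with a negative difference was 22 without the 34 h library (median log2 -0.32), 20 without the 58 h library (-0.24) and 23 once the oligodendrocyte score was fitted (-0.30). Hspa4l, a relative of Hsph1, had 195 CPM at 34 h and 209 at 58 h against 251 to 328 CPM with a median of 279.8 and just missed the threshold (log2 difference -0.50 ± 0.09 (SE), adjusted p = 0.0517). Ahsa2, related to an activator of Hsp90, had 57.8 CPM at 34 h and 52.9 at 58 h against 59.4 to 109.9 CPM with a median of 81.1 (log2 difference -0.59 ± 0.11 (SE), adjusted p = 0.0575), and it shares its locus with Usp34 on the other strand. Chaperones of the endoplasmic reticulum (ER) were divided, with 13 of 21 lower, 4 members below and 2 above, and none passed. The shares of all genes were 7.77% below and 6.73% above. Hsp90b1, the Hsp90 of the ER, had 733 CPM at 34 h and 723 at 58 h against 893 to 1008 CPM (log2 difference -0.37 ± 0.09 (SE), adjusted p = 0.0944). Hspa5, the Hsp70 of the ER, had 605 CPM at 34 h and 555 at 58 h against 623 to 893 CPM (adjusted p = 0.194). Syvn1, a ubiquitin ligase of ER-associated degradation, was above, with 52.2 CPM at 34 h and 56.2 at 58 h against 34.6 to 50.2 CPM (log2 difference 0.34 ± 0.11 (SE), adjusted p = 0.196).

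The 3 other genes that fell serve transport and scaffolding. Xpo1 (ENSMUSG00000020290, mm9 chr11:23155992-23198477), the main receptor for protein export from the nucleus, had 149.98 CPM at 34 h and 146 at 58 h, against 202 at 22 h, 204 at 28 h, 234 at 40 h, 225 at 46 h, 226 at 52 h and 228 at 64 h. The CT10 pair lay well below 6 libraries that hardly differed among themselves. Xpo1 fell to 0.674 (log2 difference -0.57 ± 0.09 (SE), adjusted p = 0.0272 by edgeR), with adjusted p = 0.420 without the 34 h library, 0.0573 without the 46 h library and 0.181 without the 58 h library. Slc5a3 (ENSMUSG00000089774, mm9 chr16:92058552-92088793), a sodium-coupled myo-inositol transporter, had 92.5 CPM at 34 h and 92.5 at 58 h, against 132 at 22 h, 121 at 28 h, 165 at 40 h, 144 at 46 h, 123 at 52 h and 162 at 64 h. Its 2 CT10 values were equal to 3 digits. It fell to 0.660 (log2 difference -0.60 ± 0.09 (SE), adjusted p = 0.0167), with adjusted p = 0.370 without the 34 h library and 0.143 without the 58 h library. Because it overlaps Mrps6 on the same strand, how the authors' counting divided reads between them is uncertain. Mpdz (ENSMUSG00000028402, mm9 chr4:80924277-81088737), a scaffold protein with many PDZ domains, had 72.9 CPM at 34 h and 71.1 at 58 h, against 91.5 at 22 h, 107 at 28 h, 109 at 40 h, 108 at 46 h, 113 at 52 h and 116 at 64 h. The CT10 libraries were the lowest pair, and the 22 h library was the lowest of the rest. It fell to 0.671 (log2 difference -0.58 ± 0.10 (SE), adjusted p = 0.0392), with adjusted p = 0.0850 without the 28 h library, 0.533 without the 34 h library, 0.0507 without the 40 h library, 0.0604 without the 46 h library and 0.195 without the 58 h library.

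Sgk1 was the gene that rose most among those responsive to glucocorticoids. This serum- and glucocorticoid-regulated kinase (ENSMUSG00000019970, mm9 chr10:21601938-21719833) acts on ion channels and transporters and stood at 58.9 CPM at 34 h and 100.1 at 58 h, against 36.7 at 22 h, 32.7 at 28 h, 35.8 at 40 h, 36.9 at 46 h, 25.6 at 52 h and 44.6 at 64 h. Both CT10 libraries were above the rest, but they differed more from each other than the other 6 did among themselves. Sgk1 rose 2.27-fold (log2 difference 1.18 ± 0.16 (SE), adjusted p = 0.00743 by edgeR), with adjusted p = 0.195 without the 58 h library. The window of 1 of its 6 RefSeq starts is shown because it was the only one among the genes called with a full glucocorticoid response element, a match held by 0.00852% of genes tested, which is Sgk1 alone.
Sgk1: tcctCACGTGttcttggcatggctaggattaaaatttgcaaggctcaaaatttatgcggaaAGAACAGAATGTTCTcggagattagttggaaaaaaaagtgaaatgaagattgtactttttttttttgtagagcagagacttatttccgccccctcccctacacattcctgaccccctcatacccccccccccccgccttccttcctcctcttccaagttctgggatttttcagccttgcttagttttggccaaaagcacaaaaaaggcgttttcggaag
This window is chr10:21993640-21993919 on the plus strand, with the element at −189 and an E-box at −246, both in capitals.

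All 17 glucocorticoid-responsive genes had a positive difference at CT10, with a median log2 of 0.48, and 6 were members above beside a background of 6.73%. Sgk1 and Per1, the latter also in the clock list, passed the test. Tsc22d3, the glucocorticoid-induced leucine zipper gene, had 132 CPM at 34 h and 138 at 58 h against 62.1 to 127 CPM with a median of 103 (log2 difference 0.52 ± 0.11 (SE), adjusted p = 0.0696). Mt2, a metallothionein, had 111 CPM at 34 h and 69.9 at 58 h against 33.1 to 61.3 CPM with a median of 51.01 (log2 difference 0.84 ± 0.19 (SE), adjusted p = 0.0825). The remaining members above were Klf9 at 0.32, Arrdc2 at 0.72 and Nfkbia at 0.78 in log2 difference, none of which passed. The distance was largest against CT4, where the median log2 was 0.80, beside 0.25 against CT16 and 0.22 against CT22. The count of positive differences was 16 without the 34 h library (median log2 0.46), 14 without the 58 h library (0.35) and 15 with the oligodendrocyte score fitted (0.25). Oligodendrocyte and meningeal markers were also farthest from CT10 at CT4, with median log2 differences of 0.98 and 1.16. Of the CT4 libraries, only that of 28 h was low, with sums of 5112 and 294 CPM. At 52 h the sums were 8497 and 1654 CPM, inside the range of the CT16 and CT22 libraries. The part of these markers in the remaining difference was not tested.

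Genes of myelin and oligodendrocytes, the cells that wrap axons, accounted for 3 of the 13 genes that rose. Pllp (ENSMUSG00000031775, mm9 chr8:97198657-97220162), a membrane protein of myelin, had 78.3 CPM at 34 h and 69.9 at 58 h, against 35.4 at 22 h, 25.1 at 28 h, 27.8 at 40 h, 31.4 at 46 h, 35.99 at 52 h and 36.7 at 64 h. Among genes at a mean of 5 CPM or more, none had a wider gap between CT10 and the highest other library. Pllp rose 2.31-fold (log2 difference 1.21 ± 0.14 (SE), adjusted p = 0.00256 by edgeR), with adjusted p = 0.115 without the 34 h library. Opalin (ENSMUSG00000050121, mm9 chr19:41136814-41151611), a membrane protein of mature oligodendrocytes, had 50.1 CPM at 34 h and 39.2 at 58 h, against 20.7 at 22 h, 26.3 at 28 h, 16.98 at 40 h, 27.8 at 46 h, 26.7 at 52 h and 18.8 at 64 h. The 64 h library, which was the richest in summed oligodendrocyte markers, was low for Opalin. It rose 1.98-fold (log2 difference 0.98 ± 0.14 (SE), adjusted p = 0.0117), with adjusted p = 0.533 without the 34 h library and 0.0513 without the 58 h library. Gpr37 (ENSMUSG00000039904, mm9 chr6:25616887-25640990), an orphan receptor present in oligodendrocytes, had 116 CPM at 34 h and 112 at 58 h, against 85.8 at 22 h, 53.4 at 28 h, 66.7 at 40 h, 79.9 at 46 h, 60.01 at 52 h and 90.9 at 64 h. It rose 1.59-fold (log2 difference 0.67 ± 0.11 (SE), adjusted p = 0.0318), with adjusted p = 0.0968 without the 28 h library, 0.533 without the 34 h library, 0.0552 without the 46 h library and 0.175 without the 58 h library.

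All 12 oligodendrocyte markers had a positive difference at CT10, with a median log2 of 0.65, and 5 were members above, beside 6.73% of all genes. The median was 0.98 against CT4, 0.30 against CT16 and 0.46 against CT22. Cnp, a myelin enzyme, had 656 CPM at 34 h and 587 at 58 h against 263 to 534 CPM with a median of 393 (log2 difference 0.67 ± 0.14 (SE), adjusted p = 0.0696), and Dnajc7 lies across it on the other strand. Mag, a myelin adhesion protein, had 371 CPM at 34 h and 328 at 58 h against 102 to 309 CPM with a median of 179 (log2 difference 0.91 ± 0.19 (SE), adjusted p = 0.0696). Mbp, the myelin basic protein, overlapped the other times, with 56471 reads at 34 h, 47509 at 58 h and 55426 at 64 h. Sox10, a transcription factor of the whole lineage, had 43.5 CPM at 34 h and 41.2 at 58 h against 15.9 to 36.4 CPM with a median of 29.4 (log2 difference 0.62 ± 0.15 (SE), adjusted p = 0.105). All 6 precursor markers had a positive difference and 2 of them were members above, with a median log2 of 0.08. That median was 0.39 against CT4, -0.01 against CT16 and 0.08 against CT22. With the oligodendrocyte score in the model no gene other than Chordc1 was called. In that fit Rbm3 had a log2 difference of 0.79 beside 0.83 without the score, Sgk1 had 1.26 beside 1.18 and Per2 had 0.72 beside 0.79, while Pllp had 0.86 beside 1.21 and Gpr37 0.42 beside 0.67. Smaller values were not confined to myelin genes: C4b had 0.42 beside 0.97, Arsg 0.59 beside 0.93 and Dbp 0.76 beside 0.95. Angptl2 went the other way, at 1.49 beside 1.32. Opalin, at 0.84 beside 0.98, is itself 1 of the 12 markers in the score.

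The 4 other genes that rose have varied roles. Angptl2 (ENSMUSG00000004105, mm9 chr2:33071551-33103400), a secreted angiopoietin-like protein, had 14.3 CPM at 34 h and 16.1 at 58 h, against 5.91 at 22 h, 7.54 at 28 h, 5.02 at 40 h, 7.91 at 46 h, 6.66 at 52 h and 4.20 at 64 h. It lies within Ralgps1, a gene on the other strand at 127 CPM. Angptl2 rose 2.49-fold (log2 difference 1.32 ± 0.20 (SE), adjusted p = 0.0167 by edgeR), with adjusted p = 0.352 without the 34 h library and 0.195 without the 58 h library. Arsg (ENSMUSG00000020604, mm9 chr11:109334684-109434755), a lysosomal sulfatase, had 62.5 CPM at 34 h and 62.8 at 58 h, against 30.7 at 22 h, 23.9 at 28 h, 32.5 at 40 h, 33.8 at 46 h, 38.7 at 52 h and 38.5 at 64 h. Its CT10 libraries were nearly equal and far above the rest. Arsg rose 1.90-fold (log2 difference 0.93 ± 0.15 (SE), adjusted p = 0.0191), with adjusted p = 0.398 without the 34 h library, 0.0502 without the 40 h library and 0.167 without the 58 h library. Csrp1 (ENSMUSG00000026421, mm9 chr1:137616625-137648927), a LIM-domain protein, had 359 CPM at 34 h and 315 at 58 h, against 246 at 22 h, 198 at 28 h, 225 at 40 h, 263 at 46 h, 196 at 52 h and 262 at 64 h. It rose 1.46-fold (log2 difference 0.55 ± 0.09 (SE), adjusted p = 0.0318), with adjusted p = 0.0634 without the 22 h library, 0.0850 without the 28 h library, 0.716 without the 34 h library, 0.0552 without the 46 h library and 0.107 without the 58 h library. C4b (ENSMUSG00000073418, mm9 chr17:34865301-34880839), a complement component, had 173 CPM at 34 h and 122 at 58 h, against 78.04 at 22 h, 48.99 at 28 h, 67.3 at 40 h, 82.1 at 46 h, 66.1 at 52 h and 118 at 64 h. The 64 h library came within a few CPM of the 58 h library. C4b rose 1.96-fold (log2 difference 0.97 ± 0.17 (SE), adjusted p = 0.0396), with adjusted p = 0.0982 without the 28 h library, 0.741 without the 34 h library, 0.0552 without the 46 h library and 0.0960 without the 58 h library.

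Among other cell types, microglial and meningeal markers leaned upward at CT10 and astrocyte and endothelial markers did not. Of 11 microglial markers, 10 had a positive difference (median log2 0.34) and 3 were members above, beside 6.73% of all genes. With the oligodendrocyte score as a term 7 were higher (median log2 0.19). Their sum was 545 CPM at 34 h and 469.7 at 58 h, against 382 to 473 CPM elsewhere, so the 58 h library was inside that range. C1qb, a subunit of complement C1q, had 39.2 CPM at 34 h and 34.5 at 58 h against 22.6 to 30.6 CPM (log2 difference 0.57 ± 0.14 (SE), adjusted p = 0.0984). Csf1r, the receptor on which microglia depend, had 87.96 CPM at 34 h and 76.3 at 58 h against 56.2 to 70.2 CPM (adjusted p = 0.143). All 9 meningeal markers had a positive difference (median log2 0.58) and 2 were members above, Dcn and Ptgds. Dcn, which encodes the matrix proteoglycan decorin, had 78.8 CPM at 34 h and 55.1 at 58 h against 17.1 to 48.7 CPM (log2 difference 0.93 ± 0.23 (SE), adjusted p = 0.107). Without the 34 h library 8 of the 9 were higher (median log2 0.56), and without the 58 h library 9 were (0.62). With the oligodendrocyte score as a term, 7 of the 9 turned negative (median log2 -0.34). That score was itself 0.59 at 34 h and 0.35 at 58 h, and why the sign turned was not tested. Astrocyte markers were 6 higher and 5 lower with no member (median log2 0.06), and endothelial markers 4 higher and 5 lower (-0.01). Cldn5, the tight-junction gene of endothelium, was the 1 endothelial member, below the others with 12.4 CPM at 34 h and 10.7 at 58 h against 16.7 to 23.2 CPM (log2 difference -0.71 ± 0.18 (SE), adjusted p = 0.116). Mural markers were 6 higher and 2 lower (median log2 0.13), but 4 and 4 without the 34 h library (-0.020) and 3 higher and 5 lower with the oligodendrocyte score (-0.35). Notch3, a receptor of vascular smooth muscle and pericytes, was the 1 member above (log2 difference 0.54 ± 0.15 (SE), adjusted p = 0.162). Tanycyte and arcuate markers moved with the 34 h library: their median log2 differences were 0.35 and 1.05, and without it -0.09 and 0.18.

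Genes that mark SCN neurons leaned lower at CT10, without passing the test. In the SCN identity list, 14 of 18 had a negative difference (median log2 -0.21) and 5 were members below, with none above and none past the test. The median was -0.22 against CT4, -0.09 against CT16 and -0.31 against CT22. Of all genes, 7.77% were members below. Vipr2, the VIP receptor through which SCN neurons synchronise, had 41.3 CPM at 34 h and 46.1 at 58 h against 52.8 to 144 CPM with a median of 71.2 (log2 difference -0.79 ± 0.17 (SE), adjusted p = 0.0774). Zfhx3, a transcription factor that sets SCN output, had 84.9 CPM at 34 h and 118 at 58 h against 125 to 164 CPM with a median of 143 (log2 difference -0.49 ± 0.13 (SE), adjusted p = 0.125). The summed list was 1002 CPM at 34 h and 1093 at 58 h, below the 1123 to 1486 CPM of the other libraries. Neuropeptides and their receptors were 6 higher and 12 lower (median log2 -0.15). For them the median was -0.02 against CT4, 0.002 against CT16 and -0.14 against CT22, so the lean was mainly against CT22. Prokr2, receptor of the SCN output peptide prokineticin 2, was a member below at 56.8 CPM at 34 h and 58.5 at 58 h against 59.5 to 138 CPM (log2 difference -0.46 ± 0.14 (SE), adjusted p = 0.181). With the oligodendrocyte score as a term, 15 of the 18 identity genes were lower (median log2 -0.20).

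Ion channels of firing followed a similar split. Of 27 tested, 20 had a negative difference (median log2 -0.16), 5 were members below and 2 members above, beside 7.77% and 6.73% of all genes, and none passed. The median was -0.077 without the 34 h library and -0.080 with the oligodendrocyte score. Kcna1, a voltage-gated potassium channel, was above with 93.3 CPM at 34 h and 86.6 at 58 h against 43.6 to 72.6 CPM with a median of 53.7 (log2 difference 0.67 ± 0.13 (SE), adjusted p = 0.0611). Scn3a, a sodium channel alpha subunit, was below with 76.3 CPM at 34 h and 94.3 at 58 h against 108 to 129 CPM with a median of 116 (log2 difference -0.47 ± 0.11 (SE), adjusted p = 0.0944). GABA is the transmitter of nearly all SCN neurons. Of 23 GABA signalling genes, 19 had a negative difference, beside 7358 of all 15217 genes. Members below were 3 of the 23, beside 7.77% of all genes. Gabra2, a receptor subunit, had 25.2 CPM at 34 h and 24.4 at 58 h against 34.1 to 50.5 CPM with a median of 38.2 (log2 difference -0.66 ± 0.13 (SE), adjusted p = 0.0666). Gabrb1 and Gabrb2, further subunits, had log2 differences of -0.59 ± 0.20 (SE) and -0.28 ± 0.09 (SE). The GABA direction did not persist with the oligodendrocyte score as a term, where 13 of 23 were higher (median log2 0.02 beside -0.07). Genes of synaptic vesicle release were 13 higher and 7 lower (median log2 0.03), but 8 higher and 12 lower without the 58 h library (-0.033) and 17 and 3 with the oligodendrocyte score (0.29). Among them were members on both sides, with Rab3a above (log2 difference 0.25 ± 0.12 (SE)) and Rims1 and Syt4 below (-0.33 ± 0.10 (SE) and -0.28 ± 0.09 (SE)), none past the test.

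Genes of translation and energy metabolism had slightly higher values. All 28 cytosolic ribosomal protein genes had a positive difference, with a median log2 of 0.18, and 5 were members above. For these lists, the share of members above among all genes was 6.73%. Without the 34 h library the count was 22 and the median log2 0.07, and with 34 h as the only CT10 library it was 28 and 0.27. Rpsa had 551 CPM at 34 h and 432 at 58 h against 381 to 409 CPM (log2 difference 0.31 ± 0.10 (SE), adjusted p = 0.1997). Oxidative phosphorylation genes were 20 higher and 3 lower, with 8 members above and none below. Uqcrc1, a core subunit of complex III, had 151 CPM at 34 h and 150.44 at 58 h against 102 to 129 CPM (log2 difference 0.36 ± 0.10 (SE), adjusted p = 0.162). Glycolysis genes were 17 higher and 2 lower, with 5 members above, among them Slc2a1, the glucose transporter of the blood-brain barrier, at 119 CPM at 34 h and 116 at 58 h against 90.2 to 106 CPM (log2 difference 0.31 ± 0.09 (SE), adjusted p = 0.172). Cholesterol synthesis genes were 12 higher and 5 lower around a median log2 of 0.05, with Mvd and Fdps among the members above. No gene of these 4 lists passed the test.

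Activity-dependent genes showed no common direction at CT10. Immediate-early genes, which respond within minutes to firing, were 10 higher and 11 lower (median log2 -0.02). The libraries disagreed: without the 34 h library 16 of 21 were higher (median log2 0.21), and without the 58 h library 3 were (-0.17). Fosl2, an AP-1 subunit, was a member below with 11.99 CPM at 34 h and 11.9 at 58 h against 14.5 to 31.5 CPM (log2 difference -0.72 ± 0.16 (SE), adjusted p = 0.0883). Gadd45b, a stress-response gene, was a member above with 4.89 CPM at 34 h and 4.31 at 58 h against 1.17 to 3.76 CPM (log2 difference 0.88 ± 0.37 (SE), adjusted p = 0.341). The cAMP and CREB list was 8 higher and 17 lower (median log2 -0.08), but 13 higher and 12 lower without the 34 h library and 17 higher and 8 lower with the oligodendrocyte score. It had 2 members above and 2 below. For the lists of this paragraph, the shares of all genes were 6.73% above and 7.77% below. The 2 below were Crem, a CREB-family modulator (log2 difference -0.45 ± 0.16 (SE)), and the kinase subunit Prkar2b (-0.25 ± 0.10 (SE)). MAP kinase feedback genes were 8 higher and 10 lower, but 10 and 8 without the 34 h library, and only Spred1 was a member, below the others (log2 difference -0.21 ± 0.09 (SE)). Clock modifiers were 8 higher and 12 lower, with 4 members below and 1 above. Sirt1 and Prkaa1 were among those below (-0.37 ± 0.14 (SE) and -0.22 ± 0.10 (SE)), and Ppp1ca was above (0.22 ± 0.09 (SE)).

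**Figure D4:**
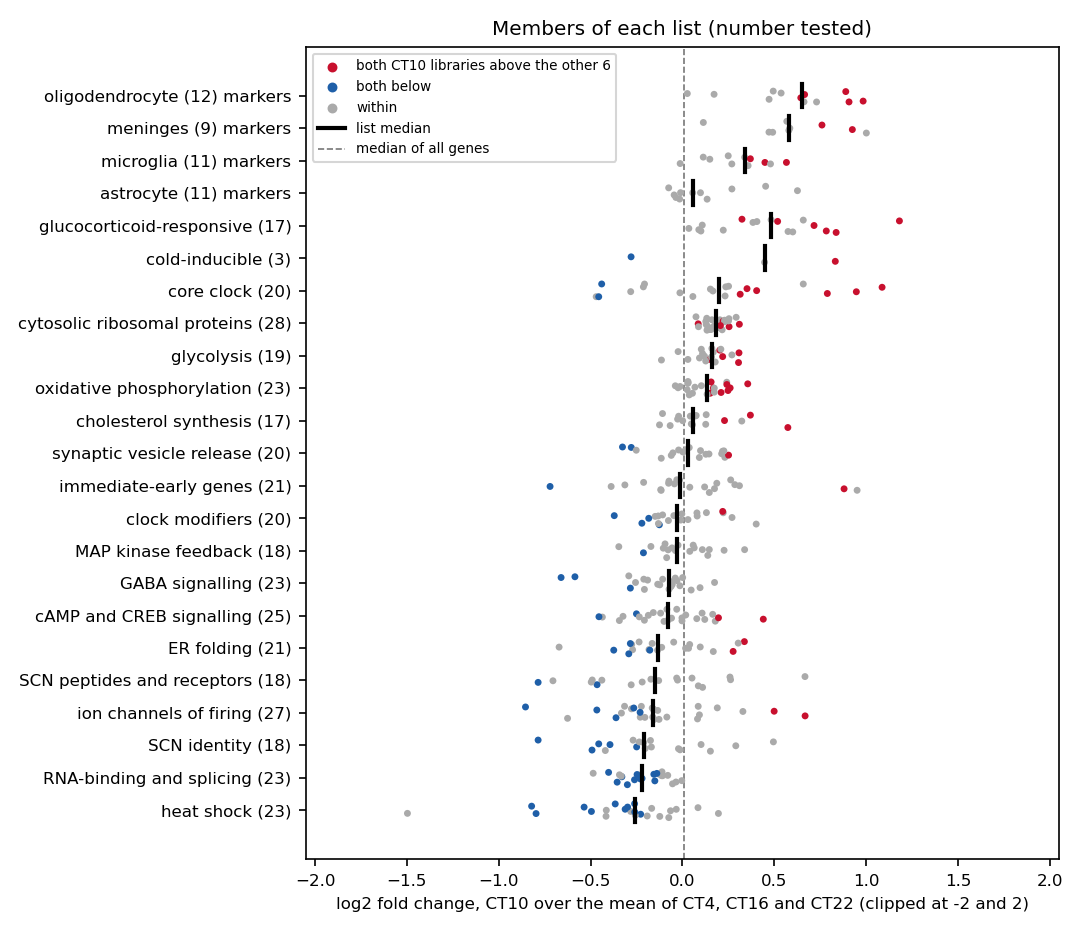
Log2 difference of CT10 from the mean of the other 3 times for the tested genes of the lists described here, 1 point a gene, with a bar at the median of each list, a dashed line at the median of all genes, members above in red and members below in blue. The heat shock and the RNA-binding and splicing lists lie mostly to the negative side, with medians of -0.26 and -0.22, and the glucocorticoid-responsive and oligodendrocyte lists to the positive side, with medians of 0.48 and 0.65.

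Several member genes with low p narrowly missed the threshold. Mapk3, which encodes the kinase ERK1, had 129.5 CPM at 34 h and 112 at 58 h against 82.00 to 88.4 CPM with a median of 84.5 (log2 difference 0.51 ± 0.09 (SE), adjusted p = 0.0517 by edgeR). Both CT10 values lay above the rest. Below the others, Slitrk4, a neuronal membrane protein, had 29.6 CPM at 34 h and 32.96 at 58 h against 43.1 to 54.01 CPM (log2 difference -0.60 ± 0.11 (SE), adjusted p = 0.0575). Uba6, an enzyme that activates ubiquitin, had 31.5 CPM at 34 h and 24.9 at 58 h against 39.8 to 55.3 CPM (log2 difference -0.71 ± 0.14 (SE), adjusted p = 0.0602). Cep170, a centrosomal protein, had 117 CPM at 34 h and 137 at 58 h against 168 to 188 CPM (log2 difference -0.48 ± 0.10 (SE), adjusted p = 0.0666). Chodl, Rbm28 and Nbeal1, also below, had log2 differences of -0.69, -0.51 and -0.50.

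Intron reads can come from unspliced RNA and were counted separately in the deposited tables. These were polyA libraries, and the source of their intron reads was not tested. Summed per gene, introns of 13726 genes were tested, of which 403 had both CT10 libraries above the other 6 (2.94%) and 753 both below (5.49%), 8.42% in all. By edgeR, introns of 9 genes rose (0.0656%) and of 3 fell (0.0219%), 0.0874% in all, and 1015 had an unadjusted p under 0.05 (7.39%). Of the 1024 genes above by gene counts, 861 had introns tested, of which 68 (7.90%) were also above by introns. Of the 1183 below, 1024 had introns tested, of which 144 (14.1%) were also below. The sign of the intron difference matched that of the gene in 553 of the 861 and in 833 of the 1024. Over all 11991 tested genes with introns tested, the intron difference was positive in 5170 and negative in 6821, with a median log2 of -0.05. Intron reads were scaled with the library sizes of the genes, and this offset bears on both counts. The median log2 difference was 0.34 for the genes above and 0.12 for their introns, and -0.29 and -0.22 for the genes below.

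Introns of 4 genes called by gene counts were called too. Sgk1 introns were at 5.95 at 34 h and 12.7 at 58 h, against 1.17 to 4.21 CPM, the largest intron rise of these 4 (log2 1.63 ± 0.33 (SE), adjusted p = 0.0440), and the call was kept only on leaving out 52 h (without each other library, adjusted p 0.0595 to 0.793, highest without 58 h). Dbp introns were at 30.1 at 34 h and 27.5 at 58 h, against 11.5 to 30.7 CPM, so that CT4 libraries overlapped (log2 0.74 ± 0.15 (SE), adjusted p = 0.0405), and the call was kept only on leaving out 52 h or 64 h (without each other library, adjusted p 0.0813 to 0.487, highest without 34 h). Hsph1 introns were at 121 at 34 h and 101 at 58 h, against 121 to 195 CPM, so that the 34 h library touched the 52 h one (log2 -0.58 ± 0.11 (SE), adjusted p = 0.0405), and the call was kept only on leaving out 52 h (without each other library, adjusted p 0.0682 to 0.385, highest without 58 h). C4b introns were at 18.3 at 34 h and 12.4 at 58 h, against 4.22 to 14.4 CPM, with the 64 h library above the 58 h one (log2 1.08 ± 0.21 (SE), adjusted p = 0.0405), and the call was kept only on leaving out 52 h, 58 h or 64 h (without each other library, adjusted p 0.0813 to 0.667, highest without 34 h). For these 4 the intron and gene differences had 1 sign. Of the 1363 Hsph1 intron reads at 34 h, 1087 lay in 1 of the 19 introns summed. Introns of Gm129, Per1, Per2 and Rbm3 did not pass, at log2 differences of 1.15 ± 0.30 (SE), adjusted p = 0.146 for Gm129, 0.82 ± 0.18 (SE), adjusted p = 0.109 for Per1, 0.69 ± 0.17 (SE), adjusted p = 0.131 for Per2 and 0.45 ± 0.13 (SE), adjusted p = 0.283 for Rbm3. Rbm3 introns were at 37.8 at 34 h and 43.7 at 58 h, against 26.1 to 32.9 CPM, a smaller difference than that of the gene. The difference between gene and intron changes was not tested.

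Among genes called by introns alone, Ipw, a non-coding transcript of the imprinted Prader-Willi region, fell. Its introns were at 31.1 CPM at 34 h and 46.1 at 58 h, against 67.9 to 77.1 (log2 difference -0.89, adjusted p = 0.00782), and adjusted p = 0.346 without the 34 h library. The host is at mm9 chr7:66874651-66934228. At 34 h, 347 of the 350 Ipw intron reads lay in 1 intron of 48569 bases. Introns of H2-B2, a gene symbol of the major histocompatibility region (mm9 chr17:35403005-35462240), were at 45.2 and 41.6 CPM, against 19.7 to 31.9 (log2 difference 0.83, adjusted p = 0.0100), with adjusted p = 0.0595 without the 22 h library and 0.282 without the 34 h library. The H2-B2 reads were those of 1 intron of 59236 bases, and which transcripts they came from was not tested. Myelin genes were again among those that rose, though Mobp overlapped the other times. Mobp introns were at 181 CPM at 34 h and 177 at 58 h, against 55.9 to 179, highest of these at 64 h. By gene counts Mobp did not pass (adjusted p = 0.374 by edgeR). At 34 h, 828 of 887 Cnp intron reads and 1736 of 2036 Mobp intron reads lay in 1 intron each. Cnp introns were at 78.8 and 70.5 CPM, against 21.8 to 58.6 (log2 difference 0.85, adjusted p = 0.0280), and the call was kept only on leaving out 52 h or 64 h (without each other library, adjusted p 0.0674 to 0.357, highest without 34 h). Mobp introns had a log2 difference of 0.77 (adjusted p = 0.0405), and the call was kept only on leaving out 52 h or 64 h (without each other library, adjusted p 0.0695 to 0.357, highest without 34 h). Ppil6, a cyclophilin-like gene, fell by introns, from 33.9 to 41.99 CPM in the others to 26.2 and 19.1 at CT10 (log2 difference -0.75, adjusted p = 0.0440), and the call was kept only on leaving out 52 h (without each other library, adjusted p 0.0813 to 0.473, highest without 58 h). The call of the Pomc introns rested on the 34 h library, which held 309 reads against 2 at 58 h, and their adjusted p was 0.979 without the 34 h library and 0.0577 without the 40 h library. The last 2 genes called were transcripts known only by sequence-database identifiers, which are not described here.

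**Figure D5:**
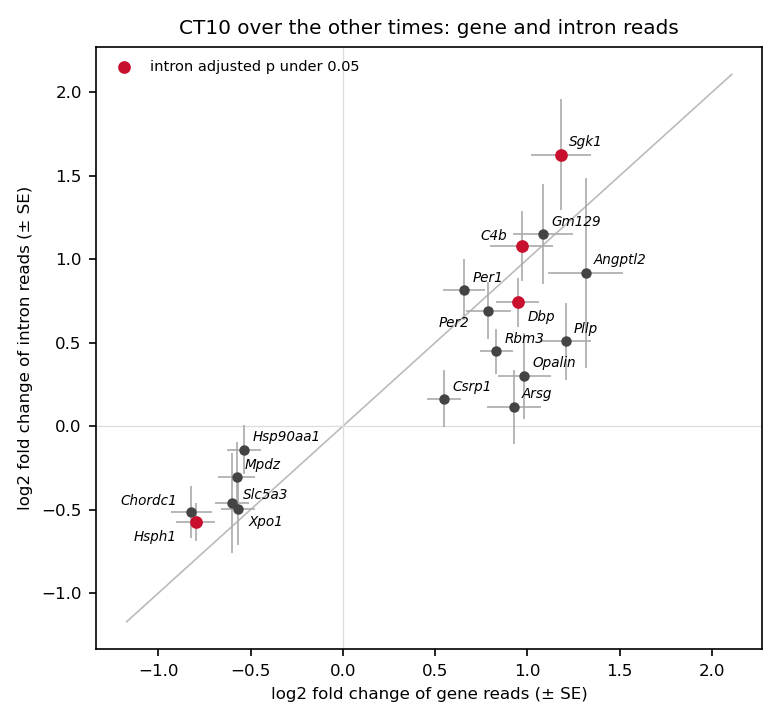
Log2 difference of CT10 from the mean of the other times by gene counts (horizontal) and by intron reads (vertical), for named genes with introns tested. Dbp, Sgk1, C4b and Hsph1 passed by both measures, and Sgk1 has a gene difference of 1.18 and an intron difference of 1.63, while Rbm3 has 0.83 and 0.45.

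CT10 was also compared with each other time alone. Against CT4, 25 genes rose (0.164%) and 6 fell (0.0394%), 0.204% in all. Against CT16, 13 rose (0.0854%) and 20 fell (0.131%), 0.217% in all. Against CT22, 6 rose (0.0394%) and 7 fell (0.046%), 0.0854% in all. These comparisons use the same 2 CT10 libraries, so their values are given side by side. Rbm3 passed in each, with adjusted p = 0.0124 against CT4, 0.00818 against CT16 and 0.00642 against CT22 and log2 differences of 0.75, 0.83 and 0.92. Pllp also passed in each, with log2 differences of 1.28, 1.2 and 1.15 and adjusted p = 0.0115, 0.0151 and 0.0315. Dbp, Per1 and Per2 differed less from CT4 than from CT16 or CT22 in fitted value, and the gap between these differences was not tested. The log2 difference of Dbp was 0.27 against CT4 (adjusted p = 0.469), 1.29 against CT16 (0.00315) and 1.29 against CT22 (0.00642). For Per1 it was 0.07 (adjusted p = 0.863), 1.04 (0.00818) and 0.86 (0.0436) in the same order. For Per2 it was 0.38 (adjusted p = 0.319), 0.77 (0.0626) and 1.21 (0.00915). Gm129 differed by 0.58 from CT4 (adjusted p = 0.269), 1.24 from CT16 (0.0309) and 1.44 from CT22 (0.0212). Rorb was farthest from CT4, at -0.75 (adjusted p = 0.0473), -0.15 from CT16 (0.805) and -0.47 from CT22 (0.343). Heat shock genes were lowest against CT16: Hsph1 differed by -0.53 from CT4 (adjusted p = 0.0957), -1.02 from CT16 (0.00315) and -0.84 from CT22 (0.0194). Chordc1 differed by -0.47 from CT4 (adjusted p = 0.170), -1.18 from CT16 (0.00315) and -0.82 from CT22 (0.0357). Sgk1 was the reverse, farthest from CT4 at 1.45 (adjusted p = 0.0124), with 0.98 from CT16 (0.0865) and 1.11 from CT22 (0.0956). Counts against single times depended on single libraries: without the 34 h and without the 58 h library they were 2 and 1 against CT4, 5 and 2 against CT16, and 3 and 3 against CT22. Without the 28 h library no gene was called against CT4, and without the 52 h library 119 were. Against CT16, 2 genes were called without the 40 h library and 5 without the 64 h library.

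The authors' deposited table gives an adjusted p per gene from a test for 24-h rhythm over the same 8 libraries. Among the genes called at CT10, the authors' deposited table has adjusted p = 0.00694 for Gm129, 0.0220 for Rbm3, 0.0220 for Per2, 0.0565 for Dbp and 0.125 for Per1. The authors' deposited table has 0.125 for Hsph1, 0.244 for Chordc1, 0.715 for Sgk1 and 0.434 for Pllp.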

How the data were processed

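Polyadenylated RNA of 8 SCN pools was sequenced with a strand-preserving kit, per the labels' protocols, and aligned with STAR 2.3.0e to mm9, per the submitters' processing notes. The deposited values are whole-number read counts per gene and per intron. How reads were counted, with what strand setting, and how column totals were made nearly equal were not given in the sources used here. The authors' gene table also gives adjusted p-values and q-values from a JTK rhythm test, per the file headers, and the former are quoted for a few genes. A lag in hours from that test is also deposited, and since its zero point is not given it was left out.

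Of 20741 genes, 15217 had at least 10 reads in at least 2 libraries and were tested with edgeR 4.0.16 in R 4.3.3 (quasi-likelihood, TMM scaling, means of 4 circadian times, 4 residual degrees of freedom, Benjamini-Hochberg at 0.05), as CT10 against the mean of the other times and against each. The biological coefficient of variation common to all genes was 0.137, and 0.192 by introns. Of 176269 introns, 137080 with 1 symbol and no overlap within a gene were summed per gene and scaled with the library sizes of the genes. Position beyond the other 6 libraries is a description. Gene IDs matched names for 19628 genes, and symbols borne by several IDs, 76 in number, were kept apart by ID. The members and the 35 gene lists (19 pathway and 16 marker lists, 501 symbols, 484 of them tested) were chosen with earlier results of these data known. Genes were named by a rule: up to 15 per direction that passed and lay beyond the others, filled by lowest p at 5 CPM or more; each clock gene; up to 3 members per list; and up to 10 per direction by introns. Klf9, Arrdc2, Nfkbia, Cirbp and Mbp were named outside it, after their values were seen, as were the genes at the edge of the rule. The alternatives were DESeq2 1.42.0, other scalings and filters, other models, and each library left out. Scripts were tested on simulated data. Strands of overlapping genes are from the GENCODE annotation provided. Promoters are from RefSeq (GRCm38.p6) and no other coordinate is on that build. Some genes that the rule names are not reported here.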

Additional observations from a re-analysis of the deposited data

Results flagged for a closer look

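Some library measures and 2 genes had a lowest or highest library far from the next in its group. About 1 in 20 groups is singled out by chance in this way. The share of opposite-strand reads was 0.220% in the 34 h library at CT10, the lowest of 8, with the next at 0.692%. Summed arcuate markers were 84.6 CPM in the same library, the highest of 8, with the next at 30.3, and Pomc was at 582 reads there. Summed choroid plexus markers were highest in the 28 h library at 146 CPM, with the next at 73.1. Summed pituitary markers were highest in the 22 h library at 119 CPM, with the next at 8.23. Among the 6 libraries outside CT10, Hsp90aa1 was lowest in the 52 h library at 1715 CPM, with the next at 1907. Mpdz was lowest of these 6 in the 22 h library at 91.5 CPM, with the next at 107. Both genes were lower still in the 2 CT10 libraries, and their calls were lost without either of them.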

How the results depend on the processing

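Counts of genes called at CT10 depended on tool, filter and library more than on scaling. For genes against the mean of the other times (19), DESeq2 gave 270, no read filter 434, CT10 against all others as 1 group 6, a term for the day 49 and the oligodendrocyte score 1, and leaving out libraries 2 to 77. Against CT4 (31), DESeq2 gave 187, no filter 486, the day term 67 and the oligodendrocyte score 0 (1377 at an unadjusted p under 0.05), with 0 to 119 on leaving out libraries. Against CT16 (33), these were 101 by DESeq2, 190 with no filter and 49 (11 higher, 38 lower) with the oligodendrocyte score, with 2 to 30, and counts without scaling gave 13 higher and 10 lower in place of 13 and 20. Against CT22 (13), DESeq2 gave 103, no filter 184 and the oligodendrocyte score 3, with 3 to 11. For introns (12), DESeq2 gave 50, no filter 78, a filter of 50 reads 5, the 2-group model 1, the day term 28, the oligodendrocyte score 0 (955 unadjusted), overlapping introns included 7 and single introns 6, with 0 to 28, and their own TMM scaling gave 10 higher and 1 lower in place of 9 and 3. With a gap of 1.2 times asked between CT10 and the others, 115 genes were above and 95 below, and introns of 81 genes above and 138 below; at a filter of 50 reads, 232 were above by introns. Leaving out libraries gave 1205 to 2576 genes above and 1317 to 2509 below, and by introns 485 to 1551 and 883 to 2312. Signs turned for Pde8a (-0.084) and Ptgds (-0.35) with the oligodendrocyte score, and on leaving out libraries for Rora (-0.062, without the 58 h library, to 0.33), Hlf (-0.14 to 0.10, positive without the 34 h library and at 0.026 without the 46 h library) and Pomc introns (-0.96, without the 34 h library, to 6.58). Leaving out a library makes the member rule easier to meet, so the counts of genes above and below rise by design. The cause of the other shifts was not tested. The labels give no replicate numbers, so the term for the day, which sets the first 4 libraries apart from the last 4, was the only block fitted. With 2 pooled libraries a time, precision is set by the spread between pools rather than by read depth.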
